A study of Mus musculus with 8 samples.

Results

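The nuclear genes that encode subunits of the mitochondrial oxidative phosphorylation system were examined in mouse hepatocytes with and without Taf2. They were taken from the deposited gene table by symbol alone, although these symbols were chosen with earlier results of these data known. The symbols begin with Nduf (then a, b, c, s or v and a digit), Uqcr, Cox4 to Cox8 or Atp5, or are Sdha, Sdhb, Sdhc or Sdhd, which gave 84 of the 24411 gene symbols. Some symbols are those of an older nomenclature, among them Atp5f1, Atp5s and Atp5sl, which RefSeq lists as Atp5pb, Dmac2l and Dmac2. Of the 84 genes, 78 had enough reads to be tested, and the other 6 are given with their counts further on.

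RNA was sequenced from liver hepatocytes of wild-type mice (libraries WT1 to WT4) and of mice whose hepatocytes had lost Taf2 by conditional knockout (libraries KO1 to KO4), harvested 2 days after plating. Taf2 encodes a subunit of TFIID, the general transcription factor that binds core promoters. No further allele, agent or treatment is named for either group, and the sources used here do not give the driver of the recombinase, the strain, the age or the sex. Whether the 4 libraries of a genotype came from separate mice is also not given, so the p-values measure the spread between these libraries, which may be technical.

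Oxidative phosphorylation moves electrons from NADH and succinate to oxygen through complexes I to IV of the inner mitochondrial membrane, and complex V (ATP synthase) uses the resulting proton gradient to make ATP. Complex I oxidises NADH, complex II oxidises succinate, complex III passes electrons from ubiquinol to cytochrome c, and complex IV (cytochrome c oxidase) reduces oxygen. Most subunits are encoded in the nucleus and are joined in the membrane to a few made from mitochondrial DNA. Hepatocytes hold many mitochondria and draw on this system for urea synthesis, gluconeogenesis and fatty acid oxidation. The symbol patterns take nuclear genes only. Of 26 symbols looked up for mitochondrially encoded genes, 0 were in the deposited gene table, so the mitochondrially encoded subunits were not analysed here.

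Library totals ran from 18947060 to 23933585 estimated counts. Taf2 itself (chromosome 15, 55015129 to 55072187, mm10) was 44.0 ± 2.05 CPM (counts per 1000000 counts of the scaled library) in wild type and 13.9 ± 1.26 in the knockout (SD, n = 4 each), with no overlap. Its log2 fold change was -1.66 (SE 0.0612, adjusted p 9.03e-15). The summed level of 12 hepatocyte markers ran from 64767 to 69842 CPM in wild type and from 79417 to 86704 CPM in the knockout. Of these genes 6 rose and 3 fell at an adjusted p under 0.05, where 30.2% of all genes tested rose and 31.2% fell. Without Alb, at 38035 ± 1777 and 55183 ± 3032 CPM, the sum of the other 11 ran from 28246 to 29740 CPM in wild type and from 26313 to 27277 CPM in the knockout, lower than in wild type. Markers of other liver cells were also higher in the knockout. The macrophage sum went from 88.1 to 117 CPM in wild type and from 237 to 267 CPM in the knockout, the endothelial sum from 66.4 to 74.5 and from 170 to 179 CPM, and the stellate and fibroblast sum from 71.8 to 77.4 and from 144 to 159 CPM. Cd68 made up most of the macrophage sum and Reln most of the stellate sum. Without Cd68 the other 11 macrophage markers ran from 15.7 to 17.3 and from 77.8 to 84.2 CPM, and without Reln the other 11 stellate and fibroblast markers from 11.4 to 14.5 and from 48.0 to 52.3 CPM. Of these lists 12 of 12, 9 of 10 and 10 of 12 tested genes rose, where 30.2% of all genes tested rose. No listed gene was at 0 in every library, and Acta2, a contractile protein of stellate cells and fibroblasts, fell. In bulk RNA a change in the number of cells of a type cannot be told apart from a change in RNA per cell. Of 5 tested cholangiocyte markers 2 rose and 3 fell (sum 136 to 151 and 171 to 199 CPM), and Cftr was at 0 in every wild-type library. Of the 2 rises, Spp1 lost its call without WT1, WT2, WT4, KO2 or KO4 (adjusted p 0.0942 to 0.192), and without Sox9 the sum was 106 to 120.1 and 97.6 to 127 CPM, which overlapped. The part of these cells in the subunit results was not tested.

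Most oxidative phosphorylation genes differed little between the genotypes. In edgeR's quasi-likelihood test over all 12122 genes tested, at a Benjamini-Hochberg adjusted p under 0.05, 22 of the 78 rose and 11 fell, and 45 did not pass. Of all genes tested, 30.2% rose and 31.2% fell, 61.4% in either direction. The median log2 fold change was 0.03 over the 78 genes and -0.003 over all genes, and the median absolute value was 0.09 against 0.22. With upper-quartile scaling between libraries in place of TMM, 26 rose and 6 fell. The groups did not overlap, and the knockout was higher, for 16 of the 78 genes, against 26.9% of all genes. They did not overlap with the knockout lower for 5, against 27.8%.

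The size of the changes was small as well as their number. For 68 of the 78 (87.2%) the absolute log2 fold change was under 0.25, a change of under 1.19-fold, against 55.0% of all genes. At least 0.5 was reached by 2 genes, Ndufa4l2 and Cox7a1, against 22.5% of all genes, and at least 1 by Ndufa4l2 alone, against 9.5%. The 95% interval of the log2 fold change lay within 0.5 of 0 for 74 of the 78 (94.9%), against 63.1% of all genes. The 4 others were Ndufa4l2, Cox7a1, Ndufv3 (interval 0.30 to 0.50) and Atp5s (0.15 to 0.67). The SD of the log2 fold changes was 0.271 over the 78 genes, against 0.695 over all genes tested. Leaving aside Ndufa4l2 and the pair of matched genes that are not subunits, it was 0.148 over 75 genes. No gene was left out of the value over all genes. The median SE was 0.0436 over the 78 genes and 0.0609 over all genes tested. The part of this difference in the narrower spread was not tested. Small changes were not particular to these genes. Absolute log2 fold changes under 0.25 were seen for 94.8% of cytosolic and 84.2% of mitochondrial ribosomal protein genes tested. Their intervals lay within 0.5 of 0 for 97.4% and 98.7%. For tricarboxylic acid cycle and pyruvate dehydrogenase genes the 2 shares were 63.2% and 84.2%, and for mitochondrial fatty acid oxidation genes 44.4% and 72.2%.

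**Figure D1:**
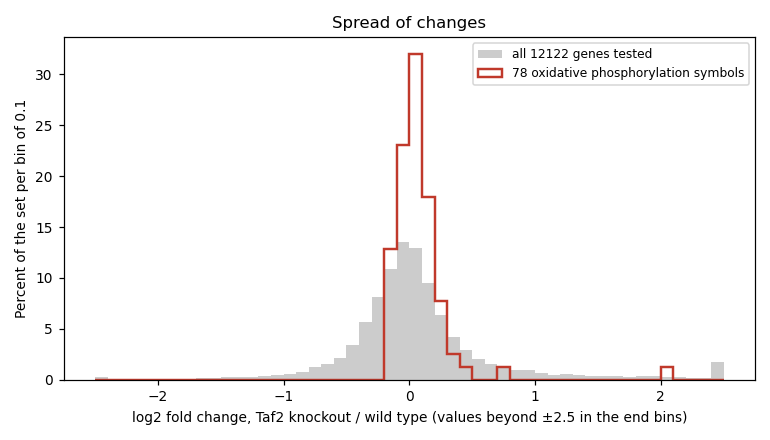
Share of genes (percent of each set per bin of 0.1) by log2 fold change, Taf2 knockout against wild type, for all 12122 genes tested (grey) and the 78 oxidative phosphorylation genes (red outline). The red outline is narrow around 0, and Ndufa4l2 at 2.05 stands alone on the right.

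The oxidative phosphorylation genes were abundant and measured with little spread. Their median coefficient of variation between libraries was 5.09% in wild type and 3.54% in the knockout, against 5.62% and 5.59% over all genes tested. Together the 84 genes took 0.854% ± 0.0333 of the counts in wild type and 0.862% ± 0.0151 in the knockout (SD, n = 4 each), and the ranges of the 2 genotypes overlapped. Among the 33 genes that passed, 18 of the 22 rises and 5 of the 11 falls passed under each of the 17 alternative analyses run. The 5 falls were Ndufs8, Ndufs1, Sdha, Atp5g3 and Atp5d.

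**Figure D2:**
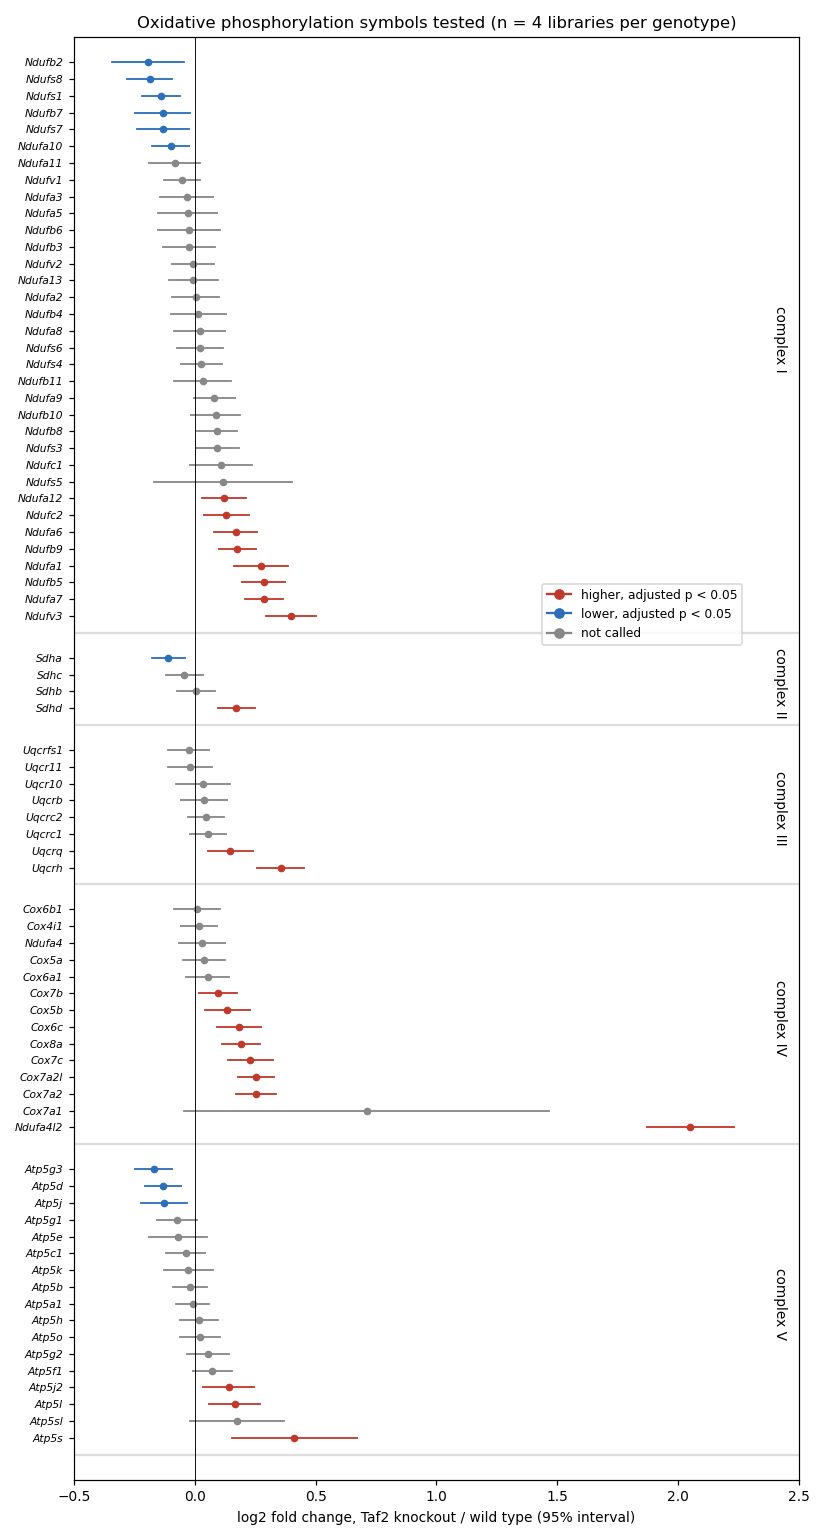
Log2 fold change with its 95% interval (horizontal axis, Taf2 knockout against wild type, n = 4 libraries each) for 77 of the 78 genes tested, grouped by complex. Red points rose, blue points fell and grey points did not pass. Apart from Ndufa4l2 at 2.05 and Cox7a1 at 0.71, every point lies between -0.19 and 0.41.

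Promoter sequences are shown for 4 genes chosen after their values were seen, to set a pair that rose beside a pair that fell. They are the largest rise (Ndufv3) and the largest fall (Ndufs8) without overlap between the genotypes in complex I, and the largest change without overlap among the subunits of complexes III (Uqcrh) and V (Atp5g3). Each runs 5′ to 3′ on the gene's strand over 280 bases, from 250 before the RefSeq start to 30 after it, in RefSeq's promoter table on GRCm38.p6, which shares its coordinates with mm10. Capitals mark a match to a motif of NRF1 (GCGCA, any base, then GCGC), ETS factors such as GABP (CCGGAAGT) or YY1 (AAGATGGC) on either strand, factors known for their sites in nuclear genes of the respiratory chain. Ndufv3 (chr17:31519865-31520144, plus strand) and Uqcrh (chr4:116075041-116075320, minus strand) rose. Ndufs8 (chr19:3912745-3913024, minus strand) and Atp5g3 (chr2:73911297-73911576, minus strand) fell.
Ndufv3: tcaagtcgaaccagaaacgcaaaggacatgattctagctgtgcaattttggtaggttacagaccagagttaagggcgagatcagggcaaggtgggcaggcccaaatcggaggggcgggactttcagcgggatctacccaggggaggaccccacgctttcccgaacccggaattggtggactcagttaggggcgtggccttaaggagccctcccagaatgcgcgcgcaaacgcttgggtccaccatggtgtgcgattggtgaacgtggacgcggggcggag
Uqcrh: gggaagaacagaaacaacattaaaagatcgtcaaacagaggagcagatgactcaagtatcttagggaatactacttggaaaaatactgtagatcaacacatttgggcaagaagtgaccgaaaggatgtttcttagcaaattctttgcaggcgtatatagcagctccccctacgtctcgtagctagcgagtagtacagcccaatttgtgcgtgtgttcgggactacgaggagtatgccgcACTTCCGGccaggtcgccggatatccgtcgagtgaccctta
Ndufs8: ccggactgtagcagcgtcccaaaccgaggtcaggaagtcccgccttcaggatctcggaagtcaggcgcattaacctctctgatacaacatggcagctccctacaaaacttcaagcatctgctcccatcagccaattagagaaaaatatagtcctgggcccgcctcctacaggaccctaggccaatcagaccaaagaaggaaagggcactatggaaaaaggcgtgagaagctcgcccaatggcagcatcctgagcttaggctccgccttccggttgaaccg
Atp5g3: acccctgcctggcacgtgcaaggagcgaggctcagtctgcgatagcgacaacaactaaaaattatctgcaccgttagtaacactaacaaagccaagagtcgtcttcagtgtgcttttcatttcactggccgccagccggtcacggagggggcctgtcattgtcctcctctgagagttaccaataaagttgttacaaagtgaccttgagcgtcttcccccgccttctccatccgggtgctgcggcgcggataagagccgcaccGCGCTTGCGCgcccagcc
The Uqcrh window held an ETS match that begins at base 240 and the Atp5g3 window an NRF1 match that begins at base 263, counted from 1 at the 5′ end. The windows of Ndufv3 and Ndufs8 held none of these letters.

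Promoter windows of 300 bases (250 before to 50 after the start) were matched by symbol for 66 of the 78 genes tested. The 12 not matched, which the counts below leave out, include Ndufa4l2 and Cox4i1. A gene counted as holding a motif if any of its windows held it. The share of all windows counts each window singly, so it is not a like measure. The NRF1 motif was in 17 of the 66 genes (25.8%), against 11.7% of the 9703 tested genes with a window. Of all 32851 windows 4.6% held it. The YY1 motif was in 11 (16.7%), against 5.4% and 2.7%. The ETS motif was in 5 (7.6%), against 9.4% and 3.9%. A CCAAT box was in 29 (43.9%), against 43.1% and 37.4%, and TATAAA in 5 (7.6%), against 9.1% and 13.6%. ACGTG or GCGTG, the core letters bound by hypoxia-inducible factors, was in 44 (66.7%), against 67.6% and 43.8%. All motifs were searched on both strands, a window could hold several, and matches to different motifs can share bases. Among the members, the NRF1 motif was in 2 of 18 genes that rose, 2 of 9 that fell and 13 of 39 that did not pass. The YY1 motif was in 1, 2 and 8 of the same genes. These matches describe the windows only.

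The complex I genes were taken as core and accessory subunits. The 7 core subunits encoded in the nucleus carry the flavin and the iron-sulphur clusters along which electrons pass. Of these 4 fell, among them Ndufs1, Ndufs7 and Ndufs8, none rose, and the median log2 fold change was -0.10. The accessory subunits surround the core and are needed for its assembly and stability. Of the 28 tested, 8 rose and 3 fell, with a median of 0.03. Beside both classes, 30.2% of all genes tested rose and 31.2% fell. All 7 core genes and all 28 accessory genes were tested, and no test of the core against the accessory genes was made.

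Ndufs8 encodes a core subunit that holds a pair of iron-sulphur clusters. Its level was 44.9, 40.1, 43.5 and 44.2 CPM in WT1 to WT4 and 38.0, 38.3, 37.0 and 38.7 CPM in KO1 to KO4. Every knockout library was below every wild-type library. The means were 43.2 ± 2.12 and 38.0 ± 0.763 CPM (SD, n = 4 each), with a log2 fold change of -0.19 (SE 0.0450, adjusted p 0.00134).

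Ndufs1, the largest subunit of the electron input arm, was 109, 100.5, 102 and 100.1 CPM in wild type and 93.6, 96.1, 89.5 and 93.6 CPM in the knockout. These groups did not overlap either. The log2 fold change of Ndufs1 was -0.14 (SE 0.0374, adjusted p 0.00288). Ndufs7 lies at the site where ubiquinone is reduced. It went from 44.3 ± 2.85 to 40.5 ± 2.12 CPM, a log2 fold change of -0.13 (adjusted p 0.0324). The groups overlapped, and the call was lost without any single library among WT1, WT3, WT4, KO1, KO2 and KO4 (adjusted p 0.0550 to 0.123).

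The flavin-bearing Ndufv1 was 94.7 ± 2.67 CPM in wild type and 91.3 ± 3.15 in the knockout, and its partner Ndufv2 was 76.4 ± 3.80 and 76.1 ± 3.71 CPM. Ndufs3, another core subunit, was 51.15 ± 2.84 and 54.6 ± 1.27 CPM. None of these 3 passed.

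The largest rise in complex I was that of Ndufv3, an accessory subunit beside the flavin site. Its level was 36.5, 36.9, 37.8 and 36.1 CPM in wild type and 48.9, 44.6, 52.7 and 47.7 CPM in the knockout. All 4 knockout libraries were above all 4 wild-type libraries, and the means were 36.8 ± 0.729 and 48.5 ± 3.36 CPM. The log2 fold change was 0.40 (SE 0.0487, adjusted p 5.94e-07).

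Ndufa7, an accessory subunit of the matrix arm, was 54.8, 51.1, 50.4 and 54.7 CPM in wild type and 65.1, 63.4, 64.7 and 64.4 CPM in the knockout (log2 fold change 0.29, SE 0.0384, adjusted p 2.03e-06). Ndufb5, a membrane-arm accessory subunit, was 42.5, 38.7, 39.2 and 40.2 CPM against 50.2, 46.8, 49.8 and 48.9 CPM (log2 fold change 0.28, SE 0.0433, adjusted p 1.04e-05). Ndufa1, a small membrane protein needed for complex I assembly, was 46.1, 39.7, 39.7 and 47.2 CPM against 51.9, 52.2, 53.8 and 51.25 CPM (log2 fold change 0.27, SE 0.0528, adjusted p 0.000149). In each of these the groups did not overlap.

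Smaller rises were those of Ndufb9 (log2 fold change 0.18, adjusted p 0.000386), Ndufa6 (0.17, adjusted p 0.00162), Ndufc2 (0.13, adjusted p 0.0152) and Ndufa12 (0.12, adjusted p 0.0217). The Ndufc2 call was lost without WT3 (adjusted p 0.0842) and the Ndufa12 call without WT3 or KO4 (0.0597 and 0.0874). The accessory subunits that fell were Ndufb2 (log2 fold change -0.19, adjusted p 0.0236), Ndufb7 (-0.13, adjusted p 0.0389) and Ndufa10 (-0.10, adjusted p 0.0242). The groups overlapped for all 3. Each of these 3 falls was lost without any single library among several. For Ndufb2 these were WT1, WT4, KO1 and KO2 (adjusted p 0.0574 to 0.103), for Ndufb7 WT1, WT2, WT4, KO1, KO2 and KO4 (0.0535 to 0.183), and for Ndufa10 WT3, WT4, KO1 and KO2 (0.0540 to 0.0927). The other 17 accessory genes did not pass, and their log2 fold changes ran from -0.08 for Ndufa11 to 0.12 for Ndufs5. The Ndufs5 values were not whole in any of the 8 libraries, so reads were divided between it and other genes, and it ran from 10.2 to 14.99 CPM in wild type and from 10.6 to 19.2 CPM in the knockout.

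Complex II is made of 4 nuclear-encoded subunits and also works in the tricarboxylic acid (TCA) cycle. Sdha, its flavoprotein, fell, Sdhd, a membrane anchor that binds haem and ubiquinone with Sdhc, rose, and Sdhb and Sdhc did not pass. Sdha was 281, 280.2, 289 and 282 CPM in wild type and 261, 269, 260.2 and 259 CPM in the knockout. Sdhd was 125, 117, 122 and 126 CPM in wild type and 142, 137, 140.4 and 133 CPM in the knockout. The groups overlapped in neither gene, and the log2 fold changes were -0.11 for Sdha (SE 0.0328, adjusted p 0.00685) and 0.17 for Sdhd (SE 0.0370, adjusted p 0.000466). The iron-sulphur subunit Sdhb was 98.7 ± 3.79 and 99.2 ± 3.03 CPM and Sdhc 103 ± 2.46 and 100.2 ± 3.84 CPM.

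In complex III the rises were in small subunits. Of the 5 small subunits 2 rose, none fell, and the 3 larger ones (Uqcrc1, Uqcrc2 and the Rieske iron-sulphur protein Uqcrfs1) did not pass. Over all genes tested, 30.2% rose and 31.2% fell. Uqcrh, the hinge protein that helps cytochrome c to dock, was 95.6, 83.3, 80.4 and 90.3 CPM in wild type and 116, 108, 111 and 113 CPM in the knockout. The groups did not overlap, and the log2 fold change was 0.35 (SE 0.0463, adjusted p 1.45e-06). Uqcrq was 160.0 ± 10.3 and 177 ± 6.84 CPM, with overlap and a log2 fold change of 0.15 (SE 0.0442, adjusted p 0.00685). Of the larger proteins, Uqcrc1, the most abundant complex III gene by CPM, was at 222 ± 7.70 and 231 ± 5.90 CPM and Uqcrfs1 at 140.4 ± 7.90 and 138 ± 1.86 CPM.

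Of the 20 complex IV symbols 14 were tested, 8 rose, none fell and 6 did not pass, where 30.2% of all genes rose and 31.2% fell. The median log2 fold change was 0.16. The symbols included Ndufa4, named for complex I but since placed in complex IV, its paralog Ndufa4l2, and Cox7a2l, which joins complexes III and IV into supercomplexes. The subunits that rose were Cox7a2, Cox7c, Cox8a, Cox6c, Cox5b and Cox7b, small proteins around the mitochondrially encoded catalytic centre.

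Cox7a2 was 99.5, 90.6, 90.6 and 99.3 CPM in wild type and 115, 115, 115 and 109 CPM in the knockout, a log2 fold change of 0.25 (SE 0.0400, adjusted p 1.54e-05). Cox7a2l was 119, 114, 114 and 120.5 CPM in wild type and 139, 137, 144 and 137 CPM in the knockout, a log2 fold change of 0.25 (SE 0.0358, adjusted p 3.95e-06). Cox7c was 144, 131, 126 and 144 CPM in wild type and 161, 152, 166 and 161 CPM in the knockout, a log2 fold change of 0.23 (SE 0.0442, adjusted p 0.000151). All knockout libraries were above all wild-type libraries in these 3 genes, and the Cox7c values were not whole in any library, so they include divided reads.

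Cox8a went from 96.0 ± 3.50 to 109.5 ± 4.05 CPM (log2 fold change 0.19, adjusted p 0.000226) and Cox6c from 110.2 ± 6.80 to 125 ± 4.44 CPM (0.18, adjusted p 0.000989), both without overlap. Cox5b (log2 fold change 0.14, adjusted p 0.0118) and Cox7b (0.10, adjusted p 0.0314) rose with overlap, and Cox7b lost its call without WT2, WT3 or KO4 (adjusted p 0.0839 to 0.1004). The other subunits did not pass. Cox4i1, the largest nuclear-encoded subunit, was 302 ± 8.78 and 305 ± 9.10 CPM, Cox5a 115 ± 5.10 and 118 ± 5.64 CPM, Cox6a1 135 ± 6.62 and 140.2 ± 6.07 CPM, and Cox6b1 147 ± 10.4 and 148 ± 4.93 CPM.

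Complex V is a rotary enzyme with a catalytic F1 head, a peripheral stalk, a membrane ring of c subunits and other membrane subunits. In the F1 head 1 of 5 genes fell and none rose, in the stalk 1 of 4 fell, in the c ring 1 of 3 fell, and among the other membrane subunits 2 of 3 rose. Over all genes tested, 31.2% fell and 30.2% rose. The catalytic beta subunit Atp5b was the most abundant of all the genes examined and did not pass. It was 1088, 1003, 1044 and 1049 CPM in wild type and 1026, 1024, 1036 and 1044 CPM in the knockout. Atp5a1, the alpha subunit, was 691 ± 15.04 and 687 ± 8.38 CPM. In both genes the knockout libraries lay inside the wild-type range.

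Atp5d, the delta subunit of the central stalk, was 160, 149, 152 and 158 CPM in wild type and 143, 139, 140 and 143 CPM in the knockout, with no overlap and a log2 fold change of -0.13 (SE 0.0356, adjusted p 0.00313). Atp5j, of the peripheral stalk, went from 78.5 ± 4.77 to 72.0 ± 4.15 CPM with overlap (log2 fold change -0.13, adjusted p 0.0230), and its call was lost without WT1, WT4, KO1 or KO2 (adjusted p 0.0608 to 0.0987). The membrane subunits Atp5l and Atp5j2 rose with overlap, by log2 fold changes of 0.17 (SE 0.0497, adjusted p 0.00720) and 0.14 (adjusted p 0.0205), and Atp5j2 lost its call without WT2 or WT3 (0.0982 and 0.0683). The Atp5 pattern also took Atp5s and Atp5sl, which are not subunits of the enzyme. Atp5s rose from 3.26 ± 0.378 to 4.36 ± 0.435 CPM (log2 fold change 0.41, SE 0.123, adjusted p 0.00684). Atp5sl was 7.64 ± 0.957 and 8.65 ± 0.588 CPM and did not pass, although it did without WT1 (adjusted p 0.0292).

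The c ring is encoded by 3 genes, Atp5g1, Atp5g2 and Atp5g3, which give the same mature protein. Atp5g3, the most abundant, was 289, 273, 281 and 299 CPM in wild type and 256, 244, 260 and 255 CPM in the knockout. It fell without overlap, by a log2 fold change of -0.17 (SE 0.0369, adjusted p 0.000511). Atp5g1 was 107 ± 3.41 and 102 ± 5.21 CPM and Atp5g2 122 ± 7.58 and 126 ± 1.12 CPM, and neither passed. Per kilobase of transcript, wild-type and knockout means were 398 and 354 CPM for Atp5g3 and 167 and 173 CPM for Atp5g2. For the longer Atp5g1 transcript they were 40.5 and 38.5 CPM. The ratios that follow are of counts, with no correction for length. As a percentage of Atp5g3 counts, Atp5g2 was 42.7 ± 1.64 in wild type and 49.8 ± 1.41 in the knockout, and Atp5g1 37.7 ± 0.529 and 40.2 ± 0.988. Both ratios were higher in every knockout library than in any wild-type library (exact permutation test, two-sided, p = 0.029, the smallest that 4 against 4 libraries can give, and 0.057 after Benjamini-Hochberg adjustment over the 6 pairs compared).

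**Figure D3:**
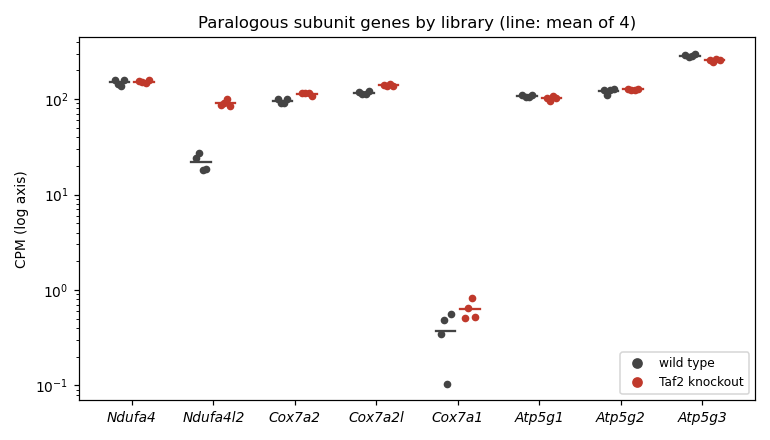
Level in CPM on a log axis for paralogous subunit genes in each library of wild type (dark) and Taf2 knockout (red), with a line at the mean of 4. Ndufa4l2 rose from 21.9 to 91.1 CPM beside Ndufa4 at 149 and 153 CPM, Cox7a2 and Cox7a2l rose together, and Atp5g3 fell.

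Ndufa4l2 stood apart from all the other genes examined. It encodes a paralog of the complex IV subunit Ndufa4, is known as a target of hypoxia-inducible factor (HIF), and lies on chromosome 10 (127509274 to 127517154, mm10). Its level was 24.3, 27.0, 18.1 and 18.4 CPM in wild type and 86.5, 91.2, 101 and 85.6 CPM in the knockout. The lowest knockout library was above the highest wild-type library, and the means were 21.9 ± 4.42 and 91.1 ± 7.18 CPM (SD, n = 4 each). The log2 fold change was 2.05 (95% interval 1.87 to 2.23, adjusted p 6.49e-14). Ndufa4 was 160, 144, 137 and 157 CPM in wild type and 154, 151, 149 and 157 CPM in the knockout, which overlapped, and its log2 fold change of 0.03 (SE 0.0451) did not pass. Ndufa4l2 amounted to 14.7% ± 3.05 of Ndufa4 counts in wild type and 59.8% ± 6.05 in the knockout (exact permutation test, two-sided, p = 0.029, the smallest possible, and 0.057 adjusted over the 6 pairs). Per kilobase of transcript Ndufa4l2 was at 23.5 ± 4.73 CPM in wild type and 97.6 CPM in the knockout, and Ndufa4 at 245 ± 18.1 and 250.4 CPM.

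Other genes known to respond to HIF in connection with respiration were also higher. Apart from Ndufa4l2, 6 genes of that list were tested and all 6 rose, where 30.2% of all genes rose, and Cox4i2 was too low to test. The list was chosen with earlier results of these data known, so its count is descriptive only. The part of HIF in these rises was not tested. Egln3, an oxygen-sensing prolyl hydroxylase, went from 37.0 ± 4.89 to 256 ± 29.8 CPM (log2 fold change 2.79), Bnip3, a mitophagy receptor, from 215 ± 36.5 to 933 ± 72.2 CPM (2.12), and Pdk1, a kinase that inhibits pyruvate dehydrogenase, from 66.0 ± 7.49 to 199 ± 15.8 CPM (1.59). Slc2a1, a glucose transporter, went from 118 ± 9.84 to 281 ± 27.5 CPM, and Higd1a, a small protein of the inner mitochondrial membrane, from 80.8 ± 3.98 to 171 ± 12.1 CPM. The rise of Lonp1, a mitochondrial protease, was small, with a log2 fold change of 0.10, and was lost without WT2 or WT4 (adjusted p 0.0773 and 0.0519).

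Ndufa4l2 is also known from mural cells, the pericytes and smooth muscle cells of vessels. A list of 8 mural markers, chosen after values were seen, summed to 3.13 to 3.94 CPM in wild type and 19.6 to 22.0 CPM in the knockout. All 5 that could be tested rose (Rgs5, Kcnj8, Abcc9, Pdgfrb and Mcam), where 30.2% of all genes tested rose, and this count is descriptive only. Notch3 was too low to test, and Higd1b and Cspg4 were at 0 in all 8 libraries. Rgs5 went from 0.709 to 8.30 CPM, and it and Pdgfrb are also in the stellate and fibroblast list. In that list 2 further genes, also made by smooth muscle cells, did not rise. Acta2 fell from 5.99 ± 0.987 to 2.37 ± 0.451 CPM (log2 fold change -1.33), and Des, at 0.301 ± 0.213 and 0.590 ± 0.116 CPM, did not pass. The part of these cells in the Ndufa4l2 result was not tested.

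**Figure D4:**
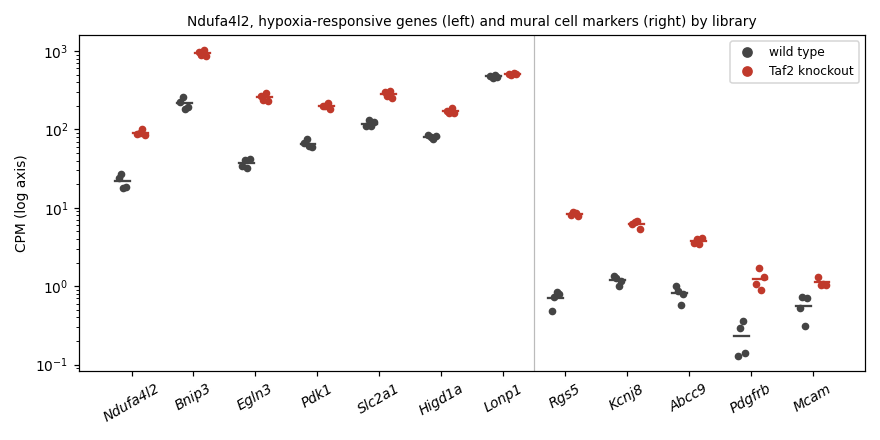
Level in CPM on a log axis in each library of wild type (dark) and Taf2 knockout (red), with a line at the mean of 4, for Ndufa4l2 and 6 HIF-responsive genes (left) and 5 mural cell markers (right). Ndufa4l2, Bnip3, Egln3, Pdk1, Slc2a1 and Higd1a are higher in every knockout library, Lonp1 lies close in both genotypes, and the mural markers rise from lower levels.

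The isoforms of complex IV that other tissues use were low or at 0 in both genotypes. Cox7a1, the heart and muscle form of Cox7a2, was 0.347, 0.486, 0.104 and 0.562 CPM in wild type and 0.508, 0.650, 0.821 and 0.521 CPM in the knockout, which overlapped. Its counts per library ran from 2 to 19, and its log2 fold change of 0.71 (95% interval -0.04 to 1.47) did not pass. The lung form Cox4i2 had 1 count in all over wild type and 4 over the knockout, and the muscle form Cox6a2 had 0 and 4, all in KO3. Cox6b2 had 1 and 2 counts, Cox8b 0 and 1, and Cox7b2 and Cox8c had 0 in both. A total of 0 counts over a genotype allows a level of up to 0.0357 CPM in wild type and 0.0341 CPM in the knockout (3 counts over the 4 libraries, counting error only).

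Summed over each complex, only complex IV separated the genotypes. Its sum in the knockout was 112% ± 2.59 of the wild-type mean, and 108% without Ndufa4l2, where the libraries ran from 95.9% to 104.1% in wild type and from 104.6% to 110.1% in the knockout. The sums of complex I (102% ± 1.78), complex II (98.7% ± 1.09), complex III (106% ± 1.59) and complex V (98.8% ± 1.49) overlapped the wild-type range. In every complex the sums of WT2 and WT3 were below those of WT1 and WT4. The same held for the cytosolic and the mitochondrial ribosomal protein genes. Sums were not tested.

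**Figure D5:**
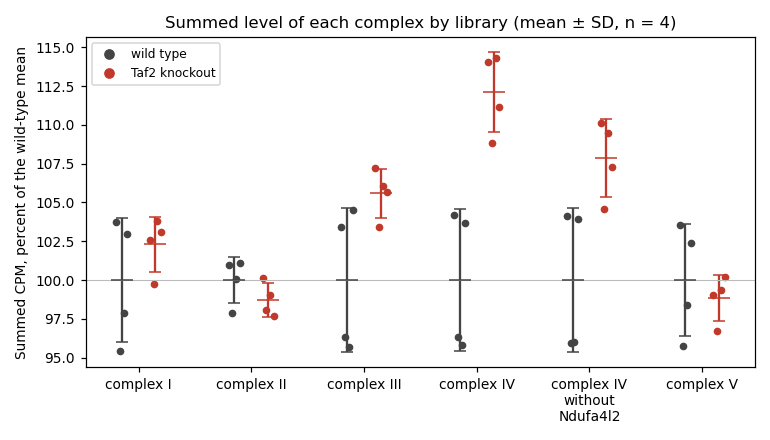
Summed CPM of each complex in each library as a percentage of the wild-type mean (dark, wild type; red, Taf2 knockout; bars, mean ± SD, n = 4; the vertical axis does not start at 0). Complex IV sums are higher in all 4 knockout libraries, with and without Ndufa4l2, and the other complexes overlap.

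Levels between genes can be compared only per length of transcript. By this measure, in CPM per kilobase, wild-type levels were highest for Atp5b (546 ± 18.0), Cox4i1 (399.7 ± 11.6), Atp5g3 (398 ± 15.5) and Atp5a1 (280 ± 6.09). The ranges of Cox4i1 and Atp5g3 overlapped, so their order is not settled. Complex I genes were lower, from 24.7 for Ndufs5 to 130.4 for Ndufb9, and Cox7a1 was lowest of all, at 0.954. The genes examined have short transcripts, with a median of 779 bases against 2871 for all genes tested. Across the 78 genes Spearman's correlation of length with log2 fold change was -0.20, and over 12016 genes it was -0.04. These genes share the same 8 libraries and are not independent.

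Assembly factors build the complexes but are not part of them. Of 48 tested 4 rose (8.33%) and 16 fell (33.3%), against 30.2% and 31.2% of all genes. None of 14 complex I factors rose and 2 fell, Timmdc1 (log2 fold change -0.40, adjusted p 1.25e-06) and Acad9 (-0.24, adjusted p 0.000128). Of 4 complex II factors 2 fell (Sdhaf1, -0.31, and Sdhaf4, -0.26), and Sdhaf4 was lost without WT1 or KO3 (adjusted p 0.0581 and 0.0721). Of 6 complex III factors 1 rose (Uqcc2, 0.28) and 3 fell (Uqcc3, -0.21, Bcs1l, -0.25, and Ttc19, -0.14). The Bcs1l call was lost without WT1, WT3, WT4, KO2 or KO3 (adjusted p 0.0557 to 0.149) and the Ttc19 call without WT1, WT2, WT4, KO1 or KO2 (0.0688 to 0.212). Of 21 complex IV factors 3 rose and 7 fell. They included the copper chaperone Cox17 (0.23) and Cox20 (0.55) among the rises, and Coa6 (-0.48) and the haem synthesis enzyme Cox10 (-0.36) among the falls. Of 3 complex V factors 2 fell, Atpaf1 (-0.33), a chaperone of the F1 head, and Tmem70 (-0.18).

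Of 5 further genes that belong with the system but whose symbols the patterns do not take, Cycs, the cytochrome c gene, rose by 0.09 and Atpif1, the inhibitor of ATP synthase, fell by 0.38 on the log2 scale. The Cycs call was lost without any single library among WT2, WT3, WT4, KO3 and KO4 (adjusted p 0.0575 to 0.136). Atpif1 was 21.4 ± 2.41 and 16.5 ± 0.818 CPM. Ndufab1, the acyl carrier protein of complex I, Cyc1, the cytochrome of complex III, and Usmg5, a small ATP synthase subunit, did not pass. In coenzyme Q synthesis, which makes the carrier between complexes I or II and III, 5 of 13 genes rose and 4 fell, where 30.2% of all genes rose and 31.2% fell. Adck3 (0.89) and Coq10a (0.39) were among the rises and Coq9 (-0.24) and Pdss2 (-0.32) among the falls.

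Among 15 tested regulators of mitochondrial gene expression 3 rose and 4 fell, where 30.2% of all genes rose and 31.2% fell. Nrf1, which binds the motif described above, went from 21.5 ± 1.01 to 26.5 ± 1.77 CPM (log2 fold change 0.31, adjusted p 0.000167). Gabpb1, a subunit of the ETS factor GABP, had a log2 fold change of 0.25 (adjusted p 0.00218). Esrra, a nuclear receptor that drives respiratory genes, went from 63.3 ± 3.38 to 53.1 ± 3.94 CPM (-0.25, adjusted p 0.000195), and Tfb1m, a methyltransferase of mitochondrial ribosomal RNA, had a log2 fold change of -0.60 (adjusted p 0.000488).

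Pathways that feed electrons to the respiratory chain are given beside it, with no test between lists. Of 19 TCA cycle and pyruvate dehydrogenase genes 11 fell and 2 rose, and the median log2 fold change was -0.18, where 31.2% of all genes fell and 30.2% rose. Ogdh, of the oxoglutarate dehydrogenase complex, went from 242 ± 8.42 to 170 ± 5.64 CPM (-0.51) and Pdha1, of pyruvate dehydrogenase, from 207 ± 3.62 to 154 ± 3.16 CPM (-0.43), while Mdh2 and Dld rose (0.19 and 0.15). Of 18 mitochondrial fatty acid oxidation genes 3 rose and 11 fell, beside the same shares of all genes, with a median of -0.17. Cpt1a, which admits fatty acids to mitochondria, had a log2 fold change of -0.72 and Hadh -0.63, while Acaa2 (0.60) and Acadm (0.49) rose. The respiratory genes, without Atp5s and Atp5sl, had 21 rises and 11 falls of 76 and a median of 0.03.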

How the data were processed

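RNA-seq of 8 libraries (4 wild type, 4 Taf2 knockout) was used. The authors deposited expected counts per gene, made with RSEM on mm10 per the submitters' processing notes, with no scaling between libraries. The sources used here do not give the aligner, the RSEM version or the strand setting, and where strand was not used a gene and its antisense partner cannot be told apart. RSEM divides reads shared by several genes, and 2.85% of values were not whole. A further 8 columns of per-sample values match no sample and were not used.

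Counts were rounded. Genes kept by filterByExpr (minimum count 10, minimum total 15), 12122 in all, entered edgeR's quasi-likelihood test with TMM scaling (edgeR 4.0.16, limma 3.58.1, DESeq2 1.42.0, R 4.3.3), with Benjamini-Hochberg adjustment over all of them at a threshold of 0.05. Each SE was taken from the log2 fold change and its F statistic. CPM values use TMM-scaled totals. Library totals ran from 18947060 to 23933585. The biological coefficient of variation, edgeR's term for the spread between libraries of a genotype, was 4.57% as a common value over genes. That spread may be technical. No 2 libraries of a genotype agreed within sampling noise (chi-square per degree of freedom 3.18 to 8.62), so each counted as 1 replicate. On simulated data of 12022 genes 72% of 1.25-fold changes and 92% of 1.5-fold changes were recovered, and 6 unchanged genes were called.

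The members and lists were chosen with earlier results of these data known. Genes named with values are Taf2, in each complex the 4 called members with the largest change and the most abundant member, isoform pairs, matched genes that are not subunits, and up to 2 called genes in each direction of each list. Others (Ndufs1, Ndufs7, Ndufs8, Atp5d, Atp5j, Atp5a1 and further members, Cyc1, Ndufab1, Ttc19, Des, Cd68, Reln, Alb, Usmg5, the HIF-responsive genes beyond Egln3 and Bnip3, and the mural markers) were named after their values were seen, and 1 gene is not reported here. Transcript lengths are means over the RefSeq transcripts listed for a gene, from GENCODE M21. Alternatives were RLE, upper-quartile and no scaling beyond totals, DESeq2, limma-voom, no filter, a minimum count of 50, thinning to the smallest library, the replicate number as a block and leaving out each library.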

Additional observations from a re-analysis of the deposited data

Results flagged for a closer look

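In 270 groups of 4 libraries (135 members and other named genes in each genotype) the highest or lowest library was checked for a gap to the nearest of the others that is large beside the whole range (Dixon's test at 95%). It passed in 13 groups, of which 6 were among the 156 groups of respiratory genes, and chance gives about 13.5 in 270.

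Among respiratory genes, Atp5g2 was low in WT2 at 110 CPM (next 125), Cox7a2 was low in KO4 at 109 CPM (next 115) and Sdha was high in KO2 at 269 CPM (next 261). Ndufb3 was high in KO4 at 30.8 CPM (next 28.0), Uqcrb was high in KO4 at 70.2 CPM (next 66.6) and Uqcr10 was high in KO1 at 78.4 CPM (next 73.0). The rise of Cox7a2 and the fall of Sdha passed without these libraries too.

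Of the other genes, Mdh2 was high in WT1 at 407 CPM (next 374), Cox20 was high in WT1 at 6.85 CPM (next 6.14) and Uqcc2 was low in WT2 at 21.0 CPM (next 23.8). Atpif1 was high in KO4 at 17.7 CPM (next 16.2), Adck3 in KO3 at 16.0 CPM (next 10.8), Gabpb1 in KO3 at 24.1 CPM (next 22.1) and Sox9, a cholangiocyte marker, in KO3 at 78.1 CPM (next 72.5).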

How the results depend on the processing

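Over 17 alternatives, 18 to 26 respiratory genes rose, 5 to 12 fell, and their median log2 fold change stayed between 0.005 and 0.056. The count of falls was 6 with upper-quartile scaling, 7 with DESeq2, 7 with a minimum count of 50, and 5 to 10 when 1 library was left out. Members at an absolute log2 fold change of at least 0.5 went from 2 to 1 with a minimum count of 50 or after thinning to the smallest library, and ranged from 1 to 2 when 1 library was left out. Library totals alone gave 18 rises and 12 falls. Taf2 ran from -1.71 to -1.62. The cause was not tested. With the replicate number as a block, 23 respiratory genes rose and 11 fell. Same-numbered libraries did not deviate together (correlations from -0.03 to 0.02 against up to 0.06 for other numbers). The labels do not say whether the numbers mark a shared animal or day, and these correlations cannot exclude a small shared effect. Of 1984 values for 117 single genes, 1855 kept their direction and their side of the threshold, 104 lost the call, 4 gained it and 21 changed sign, all of the last in genes that did not pass. Those were, on the log2 scale, with library totals alone Cox4i1 (-0.0111), Cox6b1 (-0.0182), Sdhb (-0.0206) and Cyc1 (-0.0147), with upper-quartile scaling Atp5b (0.00537) and Atp5a1 (0.0162), with a minimum count of 50 Atp5b (0.000983) and Atp5a1 (0.0118), and without a filter Sdhb (-0.00114). When 1 library was left out, Cox4i1 ran from -0.00204 to 0.0361, Cox6b1 ran from -0.0264 to 0.0481, Ndufa4 ran from -0.0108 to 0.0640, Atp5a1 ran from -0.0189 to 0.00404, Ndufs5 ran from -0.0476 to 0.238, Sdhb ran from -0.0165 to 0.0335 and Cyc1 ran from -0.00785 to 0.0362. Depth limits Cox7a1 and the untested isoforms.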

Other observations

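The ribosomes of the cytosol and of mitochondria, which make the nuclear-encoded and the mitochondrially encoded subunits respectively, differed in their counts. Of 77 tested cytosolic ribosomal protein genes 36 rose and 3 fell (median log2 fold change 0.09), where 30.2% of all genes rose and 31.2% fell. Their sum overlapped between the genotypes, at 32097.5 to 35086.5 CPM in wild type and 33968.3 to 36776.8 CPM in the knockout. Rpl35a went from 186 ± 15.3 to 227 ± 9.002 CPM (SD, n = 4 each) and Rps3a1 from 741 ± 36.9 to 855 ± 19.6 CPM, while Rpl22l1 and Rps21 fell, by 0.28 and 0.20 on the log2 scale. Of 76 tested mitochondrial ribosomal protein genes 12 rose and 30 fell, beside the same shares of all genes, with a median of -0.09. Their sum also overlapped, at 2632 to 2827 CPM in wild type and 2529 to 2671 CPM in the knockout. Mrpl34 went from 35.5 ± 1.26 to 24.6 ± 1.71 CPM and Mrps2 from 38.0 ± 1.74 to 29.3 ± 1.204 CPM, while Mrpl30 and Mrpl9 rose by 0.30 and 0.24. Cytosolic ribosomal protein genes have many processed copies in the genome, so divided reads make their values less certain. The difference between the lists was not tested.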
